A study of Mus musculus with 4 samples.

Results

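The genes examined here are 10 genes of adenosine and purinergic signalling, *Adk*, *Ada*, *Adora1*, *Adora2a*, *Adora2b*, *Nt5e*, *Entpd2*, *P2rx2*, *P2ry1* and *Slc29a1*, taken by their symbols from the 23997 genes of the deposited table. They were measured by RNA-Seq in Lgr5+ progenitors and Lgr6+ progenitors, which are EGFP+ cells that flow cytometry sorted at postnatal day 3 from the cochlea, the former of Lgr5-EGFP-IRES-creERT2 mice and the latter of mice that carry Lgr6-EGFP-IRES-CreERT2. The methods give about 10000 cells per library in 1 place, and in another about 10000 cells whose RNA was then split into the replicates. The strain in the labels is C57BL/6, and no treatment is named for either population. In both lines EGFP is driven by the promoter of the Lgr gene that gives the line its name, and the zygosity of the allele is not given in the sources used here. The labels list 2 libraries per population, while the methods describe RNA of each population split into 3 fractions, so the replicates share an extraction. The table holds 1 FPKM value (fragments per kilobase of transcript, scaled to the mapped fragments) per gene and population, with the replicates already combined. The spread between replicates is therefore unknown, no test was made, and no difference given here has a replicate check. The members were chosen by name with their FPKM values in both populations already known, so their differences are a description.

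ATP released into the fluid around a cell acts on P2X receptors, which are cation channels, and on P2Y receptors, which couple to G proteins. Enzymes on the cell surface remove its phosphates in turn and leave adenosine, which acts on its own G protein-coupled receptors, is carried through the membrane by nucleoside transporters, and is turned into AMP by adenosine kinase or into inosine by adenosine deaminase inside the cell. In the cochlea before the onset of hearing, supporting cells of Kölliker's organ release ATP spontaneously, and P2Y1 receptors, calcium release and the chloride channel Ano1 link this release to the firing of nearby hair cells.

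The 10 genes differed widely in level. On the FPKM scale, which is per transcript length, *Slc29a1* was the highest in both populations, above 95.4% of the 13436 genes that reached an FPKM of 1 in at least 1 population (kept genes) in Lgr5+ progenitors and above 91.6% of them in Lgr6+ progenitors. In Lgr5+ progenitors it was followed by *P2rx2*, *P2ry1*, *Adk*, *Entpd2* and *Nt5e*, and in Lgr6+ progenitors by *Adk*, *P2rx2*, *Entpd2*, *P2ry1* and *Nt5e*. Without replicates it cannot be said which neighbours in these orders differ. *Ada* and the 3 adenosine receptor genes were below an FPKM of 1 in both populations, so 6 of the 10 genes were kept. Of these 6, *Adk*, *Entpd2* and *P2rx2* were higher in Lgr6+ progenitors by 1.5-fold or more in log2(FPKM + 1), *Slc29a1* and *Nt5e* were higher in Lgr5+ progenitors by as much, and *P2ry1* was not 1.5-fold apart. Among all kept genes 28.5% were apart by this much toward Lgr6+ progenitors and 23.3% toward Lgr5+ progenitors, 51.8% in all, so differences of this size were common and the count of members says nothing particular about them. At 2-fold, *Adk*, *Entpd2* and *P2rx2* were still apart toward Lgr6+ progenitors, as were 18.2% of the kept genes, and *Slc29a1* toward Lgr5+ progenitors, as were 11.7%, which makes 4 of the 6 members against 29.9% of the kept genes. The share past 1.5-fold varied with level, and was 62.3% where the higher FPKM was from 1 to under 5 (*Nt5e* and *P2ry1*), 49.5% from 5 to under 50 (*Adk*, *Entpd2* and *P2rx2*) and 44% from 50 upward (*Slc29a1*). The rule that names the members has no threshold.

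**Figure D1:**
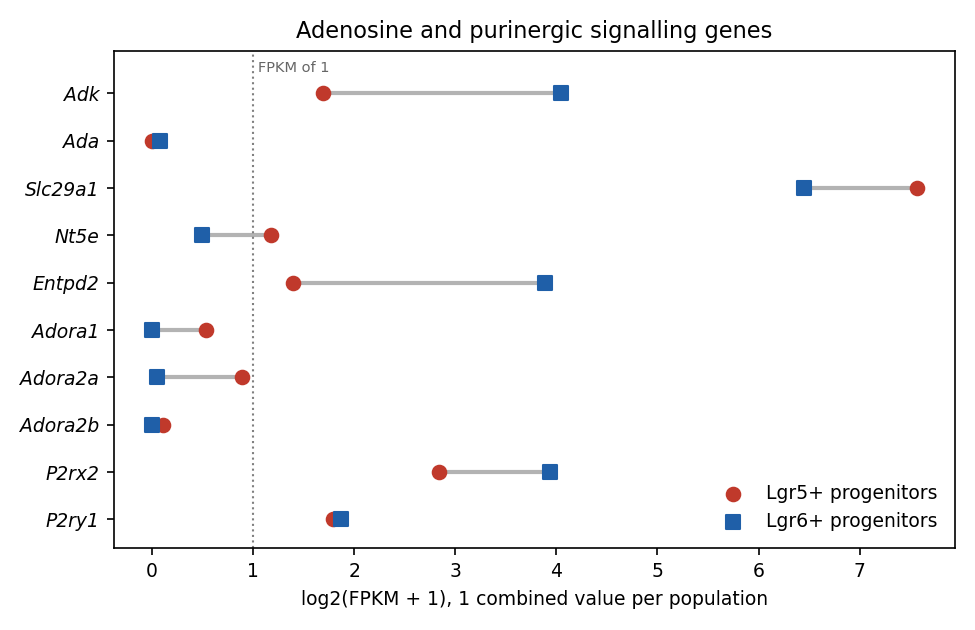
FPKM of the 10 genes on the log2(FPKM + 1) scale (horizontal axis), with 1 combined value for Lgr5+ progenitors (circles) and 1 for Lgr6+ progenitors (squares) joined by a line, and a dotted line at an FPKM of 1. *Adk* and *Entpd2* have the longest lines, toward Lgr6+ progenitors, and *Slc29a1* lies apart from the other genes on the right, higher in Lgr5+ progenitors.

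The values carry no read counts, but low FPKM values fall on steps, and these show how near the lowest members lie to the smallest values the table can hold. For 8105 genes with 1 annotated protein-coding transcript, the product of FPKM and transcript length less 200 bases was most crowded at 0.129 FPKM kb in Lgr5+ progenitors, where 87 genes lay within 5% of the step and 14 did in equally wide windows next to it. In Lgr6+ progenitors the step was 0.0401 FPKM kb, with 40 genes at it and 5.5 beside it, so a given FPKM stood for 3.21 times as many steps there. Whether a step is 1 fragment of 1 library is not known. Numbers of steps are given for the longest annotated transcript of a gene. On the sorting genes, *Lgr5* showed an FPKM of 9.65 in Lgr5+ progenitors against 24.99 in Lgr6+ progenitors, and *Lgr6* had 2.06 and 2.90. *Lgr5* was thus not higher in the population named after it. The study describes the Lgr6+ cells as a part of the Lgr5+ population, so by its account both populations express *Lgr5*. The supporting cell gene *Sox2* had 139.6 and 54.8, and *Epcam*, an epithelial gene, had 396 and 258.

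*Adk* encodes adenosine kinase, which clears adenosine by phosphorylating it, and lies on chromosome 14 from 21052574 to 21448569 (GRCm38). Its FPKM was 2.23 in Lgr5+ progenitors against 15.5 in Lgr6+ progenitors, a ratio of 6.95 and a difference of 2.35 in log2(FPKM + 1). These values stood for 25.9 steps and 579.3 steps, so neither rests on the lowest values of the table. Of the kept genes, 2.80% had a difference further toward Lgr6+ progenitors. The 5 kept genes nearest to *Adk* in the plane of the log2(FPKM + 1) values of both populations were *Galnt9*, *Tpst1*, *Hdhd3*, *Pitpnm1* and *Gdap1*, at distances from 0.07 to 0.21. With only 2 values per gene, this likeness is one of level and difference alone.

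*Ada*, on chromosome 2 from 163726571 to 163750239, encodes adenosine deaminase, the other enzyme that removes adenosine. It was listed at 0 in Lgr5+ progenitors, against an FPKM of 0.0532 in Lgr6+ progenitors, which corresponds to 2.0 steps. No difference can be read from values this close to the lowest steps. *Adk* was thus the higher of the 2 adenosine-removing genes in both populations. *Adal*, which encodes a deaminase related in sequence to that of *Ada*, showed an FPKM of 2.52 in Lgr5+ progenitors against 7.42 in Lgr6+ progenitors, a difference of 1.26.

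Adenosine crosses the plasma membrane through equilibrative transporters, of which *Slc29a1* encodes the best known, ENT1. *Slc29a1*, on chromosome 17 from 45585200 to 45599603, showed an FPKM of 188 in Lgr5+ progenitors against 86.6 in Lgr6+ progenitors, a ratio of 2.17 toward Lgr5+ progenitors and a difference of -1.11 in log2(FPKM + 1). It provided 94.4% of the summed FPKM of the 4 *Slc29a* genes in Lgr5+ progenitors against 90.8% in Lgr6+ progenitors. *Slc29a2*, for ENT2, had 4.10 and 0.598, and *Slc29a3*, for a transporter of lysosomes and mitochondria, had 4.52 and 3.59. *Slc29a4*, for a transporter that also carries monoamines, was the 1 gene of the family that was higher in Lgr6+ progenitors, with 2.51 and 4.63. Scaling each population to the same sum leaves *Slc29a1* higher in Lgr5+ progenitors, with a difference of -0.85. Of the concentrative transporters, *Slc28a1* and *Slc28a2* were listed at 0 in both populations and *Slc28a3* had 0.133 and 0.165.

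Outside the cell, Entpd enzymes take phosphates off ATP and ADP down to AMP, and Nt5e turns AMP into adenosine. *Entpd2*, on chromosome 2 from 25395874 to 25401323, encodes an enzyme that mainly cleaves ATP, and showed an FPKM of 1.63 in Lgr5+ progenitors against 13.8 in Lgr6+ progenitors. The ratio was 8.50 and the difference 2.50, the largest of the 10 genes, and 2.34% of the kept genes lay further toward Lgr6+ progenitors. *Entpd1* was listed at 0 and at 1.24, *Entpd3* had 1.30 and 5.13, and *Entpd8* was listed at 0 in both populations. The summed FPKM of these 4 surface enzymes was 2.93 in Lgr5+ progenitors against 20.2 in Lgr6+ progenitors, of which *Entpd2* made up 55.5% and 68.5%.

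*Nt5e*, on chromosome 9 from 88327609 to 88372089, encodes the enzyme CD73, which turns AMP into adenosine. Its FPKM was 1.26 in Lgr5+ progenitors against 0.413 in Lgr6+ progenitors, a ratio of 3.04 toward Lgr5+ progenitors. The values lay near 33.0 and 34.8 steps, so a similar number of steps stood for an FPKM 3 times apart. The difference of -0.68 passed 1.5-fold but not 2-fold, and 62.3% of the kept genes whose higher FPKM was from 1 to under 5 were 1.5-fold apart in either direction. The genes for the first and the last step from ATP to adenosine outside the cell were thus listed in opposite directions, *Entpd2* toward Lgr6+ and *Nt5e* toward Lgr5+ progenitors.

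The 3 adenosine receptor genes were the lowest receptor genes among the members. *Adora2a*, on chromosome 10 from 75316877 to 75334792, encodes a receptor that raises cyclic AMP and showed an FPKM of 0.857 in Lgr5+ progenitors against 0.0335 in Lgr6+ progenitors, which correspond to 15.5 steps and 1.9 steps. *Adora1*, on chromosome 1 from 134193448 to 134235457, encodes a receptor that lowers cyclic AMP. Its FPKM was 0.448 in Lgr5+ progenitors, or 19.4 steps, and it was listed at 0 in Lgr6+ progenitors. *Adora2b*, on chromosome 11 from 62248984 to 62266452, encodes a further receptor that raises cyclic AMP. It reached 0.0780 in Lgr5+ progenitors, or 1.0 step, and was listed at 0 in Lgr6+ progenitors. All 3 were thus listed higher in Lgr5+ progenitors, the population with the coarser steps, and all 3 were under the FPKM of 1 asked of a kept gene. The 1 other adenosine receptor gene, *Adora3*, was listed at 0 in both populations. A 0 in this table may be an estimate that failed, so no ratio is given against it.

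*P2rx2*, on chromosome 5 from 110339812 to 110343035, encodes a channel subunit that opens on binding ATP, and variants of the human gene cause a dominant hearing loss. It showed an FPKM of 6.14 in Lgr5+ progenitors against 14.4 in Lgr6+ progenitors, a ratio of 2.34 and a difference of 1.11. *P2rx3*, whose product can form channels together with that of *P2rx2*, had 12.6 and 6.00, and *P2rx6* had 12.3 and 7.57. *P2rx4* had 4.69 and 9.93, *P2rx7* had 2.73 and 2.95, *P2rx5* had 1.06 and 0.148, and *P2rx1* was listed at 0 in both populations. The summed FPKM of the 7 genes was 39.5 in Lgr5+ progenitors against 40.98 in Lgr6+ progenitors. Within this similar sum the order changed. *P2rx2* was 15.5% of it in Lgr5+ progenitors against 35.1% in Lgr6+ progenitors, whereas *P2rx3* was 31.8% and 14.6%. The likeness of the sums holds for unscaled FPKM. Over all genes, the summed FPKM of Lgr6+ progenitors was 83.3% of that of Lgr5+ progenitors.

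*P2ry1*, on chromosome 3 from 61002785 to 61008982, encodes the P2Y1 receptor for ADP. It showed an FPKM of 2.46 in Lgr5+ progenitors against 2.64 in Lgr6+ progenitors, a difference of 0.08. This difference was -0.21 after quantile normalization and 0.29 with each population scaled to the same sum. Of the 6 kept members it was the closest to an equal level in both populations. *P2ry2*, for a receptor of ATP and UTP, had 7.42 and 1.46, and was 67.4% of the summed FPKM of the P2Y list in Lgr5+ progenitors against 12.9% in Lgr6+ progenitors. *P2ry12* was listed at 0 and at 3.77, *P2ry6* had 0.374 and 1.61, and *P2ry14* had 0.748 and 1.87, all with the higher value in Lgr6+ progenitors. *P2ry4*, *P2ry10* and *P2ry13* were listed at 0 in both populations. The summed FPKM of the P2Y list was 10.997 and 11.4.

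**Figure D2:**
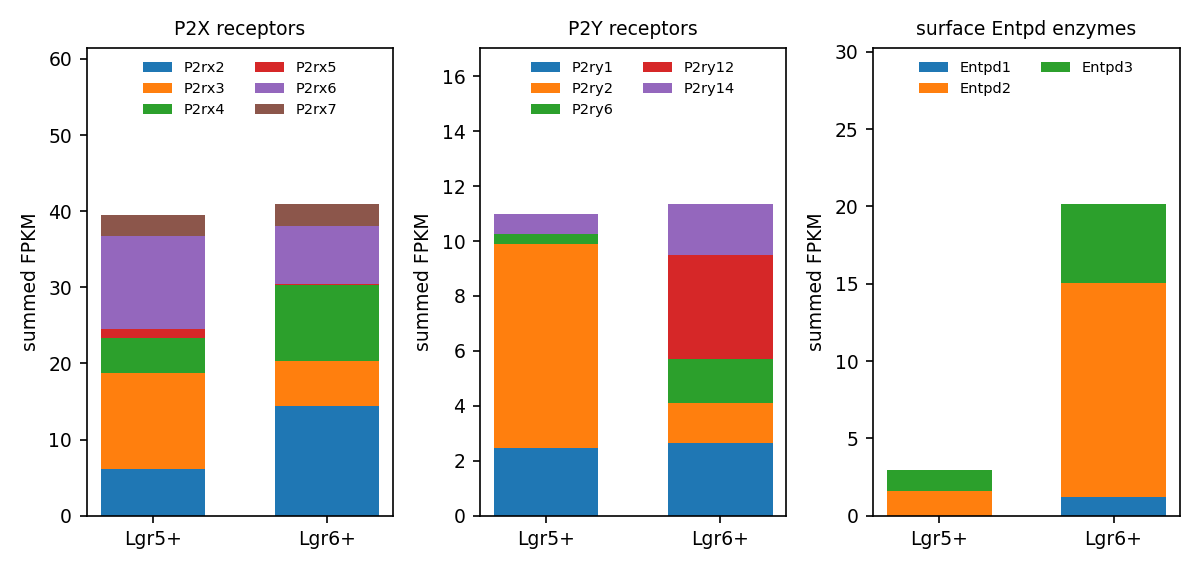
Summed FPKM (vertical axes, from 0) of the P2X receptor genes, the P2Y receptor genes and the surface Entpd genes in Lgr5+ and Lgr6+ progenitors, with each gene as a coloured part of the bar. In unscaled FPKM, the P2X sums of 39.5 and 40.98 and the P2Y sums of 10.997 and 11.4 are close while their parts differ. The Entpd sum is 2.93 against 20.2.

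Some of these genes are known from other cells that a sort may carry along, so marker lists were read beside them. All 10 macrophage markers had the higher FPKM in Lgr6+ progenitors, and their summed FPKM was 4.22 in Lgr5+ progenitors, where *C1qb*, *C1qc*, *Tyrobp*, *Csf1r* and *Aif1* were listed at 0, and 274.5 in Lgr6+ progenitors. *P2ry12*, *P2ry6* and *Entpd1*, which are known from macrophages and microglia, had their higher values in the same population. The 8 endothelial markers summed to 16.4 and 76.8, with *Kdr* listed at 0 in Lgr5+ progenitors, and 7 of the 8 were higher in Lgr6+ progenitors. The 7 glial markers summed to 73.3 and 197.6, with 4 of them higher in Lgr6+ progenitors, *Cdh19* listed at 0 in Lgr5+ progenitors and *Foxd3* in Lgr6+ progenitors, and *Entpd2* is known from glial cells. The 9 hair cell markers in the table summed to 2734 and 5118, with 8 of the 9 higher in Lgr6+ progenitors and none at 0. Most of these sums came from *Pcp4*, at 1337 and 3277, and *Cib2*, at 776 and 1051. *P2rx2* is known from hair cells. The 8 fibrocyte and mesenchyme markers summed to 320.4 and 577, with 5 of the 8 higher in Lgr6+ progenitors, and *Otos* alone had 5.598 and 248.5. The 7 neuronal markers summed to 93.6 and 126.1, with 4 of the 7 higher in Lgr6+ progenitors, *Snap25* alone at 7.63 and 53.4, and *Prph* listed at 0 in Lgr5+ progenitors. The 6 erythroid markers summed to 629.8 and 108.05, with 5 of the 6 higher in Lgr5+ progenitors and *Alas2* at 4.36 and 6.64, and *Slc29a1* is also known as a transporter of red blood cells. The 10 supporting cell markers summed to 1001 and 623, with 8 of the 10 higher in Lgr5+ progenitors. Each marker list was set beside only such purinergic genes as had their higher value on the side of its sum. Others are not paired here. *P2rx7*, at 2.73 and 2.95, was not 1.5-fold apart, and *P2ry13* was listed at 0 in both populations. *P2rx3*, at 12.6 and 6.00, and *Nt5e*, at 1.26 and 0.413, were higher in Lgr5+ progenitors. The part of the marked cell types in the differences of the members was not tested. In bulk samples fewer cells of a type and less RNA per cell cannot be told apart.

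**Figure D3:**
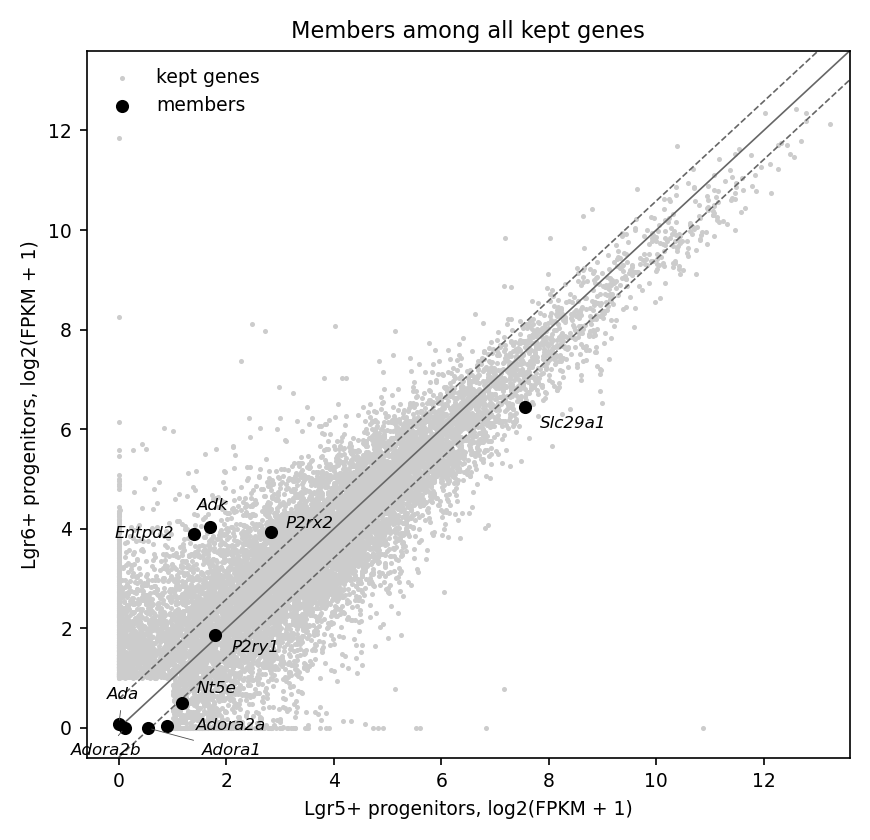
Each grey point is 1 of the 13436 kept genes, with log2(FPKM + 1) in Lgr5+ progenitors on the horizontal axis and in Lgr6+ progenitors on the vertical axis, and the 10 members are in black. The solid line marks equal values and the dashed lines 1.5-fold, and *Adk*, *Entpd2* and *P2rx2* lie above the upper dashed line while *Slc29a1*, *Nt5e* and *Adora2a*, which was not kept, lie below the lower one.

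The wider pathway was read in 10 lists with 115 genes, of which 83 were kept. Of these, 27 were called toward Lgr6+ progenitors and 14 toward Lgr5+ progenitors, 49.4% in all against 51.8% of all kept genes, and the median difference was 0.02 against 0.03 over all kept genes. A share this near the background is no result about the pathway. With each population scaled to the same sum the median of all kept genes moved from 0.03 to 0.30, and the share of the called genes that were higher in Lgr6+ progenitors moved from 55% to 69.7% among all kept genes. In the pathway lists the split then became 36 and 13. A level of at least 5 FPKM and a difference of at least 2-fold were reached by 17 genes, 12 of them higher in Lgr6+ progenitors. Among all kept genes, without the level of 5 FPKM, 60.8% of those past 2-fold were higher in Lgr6+ progenitors. At a minimum FPKM of 5 and 1.5-fold, the share of called genes higher in Lgr6+ progenitors was 50%. The share under both conditions was not computed, so the 12 of 17 have no matched background. All 17 kept their direction under the 3 scalings tried.

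Of the release genes, *Panx1*, for the ATP-permeable channel pannexin 1, showed an FPKM of 37.1 in Lgr5+ progenitors against 14.1 in Lgr6+ progenitors, a difference of -1.33. The cochlear connexin genes *Gjb2* and *Gjb6* had 177 and 156.7 and 104.2 and 92.9, and neither was 1.5-fold apart. *Slc17a9*, for the transporter that loads ATP into vesicles, was listed at 0 in Lgr5+ progenitors and at 2.89 in Lgr6+ progenitors. Of the 7 kept release genes, 2 were called in each direction, against 28.5% of all kept genes toward Lgr6+ and 23.3% toward Lgr5+ progenitors.

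Of the 10 kept genes from the P2Y1 receptor to calcium and Ano1, 1 was called in each direction and 8 were not 1.5-fold apart, where 51.8% of all kept genes were called. *Ano1* showed an FPKM of 60.7 in Lgr5+ progenitors against 62.9 in Lgr6+ progenitors, so like *P2ry1* it was listed at nearly the same level in both. *Plcb3*, for a phospholipase C that G proteins activate, had 17.5 and 9.40, a difference of -0.83. *Kcnn2*, for a calcium-activated potassium channel that is known from outer hair cells, had 8.42 and 30.1, a difference of 1.72.

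Of the 11 kept genes of adenylyl cyclases and G protein subunits, 6 were called higher in Lgr6+ progenitors and none in Lgr5+ progenitors, against 28.5% and 23.3% of all kept genes. All 6 were adenylyl cyclase genes, of which *Adcy4* and *Adcy7* were listed at 0 in Lgr5+ progenitors and were kept only through their values in Lgr6+ progenitors. They were led by *Adcy8*, for a cyclase stimulated by calcium, with an FPKM of 1.53 and 10.2 and a difference of 2.15. The other called cyclase genes stayed under an FPKM of 5 in both populations. Among kept genes whose higher FPKM was from 1 to under 5, 62.3% were called in either direction, so calls at this level were common. Of the cyclase genes that were not kept, *Adcy3* was listed higher in Lgr5+ progenitors and *Adcy5* higher in Lgr6+ progenitors. *Gnas*, for the stimulatory subunit, had 930.6 and 846, and *Gnai2*, for an inhibitory subunit, had 152 and 154.7. *Adcy6*, the highest cyclase gene in both populations, had 18.5 and 12.5, a difference of -0.53.

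Inside the cell, 5 of the 19 kept genes of adenosine metabolism were called toward Lgr6+ progenitors, 2 toward Lgr5+ progenitors and 12 in neither direction, where 51.8% of all kept genes were called. *Ahcyl2*, whose product resembles the enzyme that frees adenosine from S-adenosylhomocysteine but is known for controlling ion transport, showed an FPKM of 4.38 and 15.1, a difference of 1.58. *Nt5m*, for a nucleotidase of mitochondria, had 12.8 and 31.8, a difference of 1.25. Of the ectonucleotidase list, *Enpp2* had 0.107 and 12.4, a difference of 3.59, where the Lgr5+ value stood for 2.7 steps. Its product, autotaxin, is known mainly for making lysophosphatidic acid and not for breaking down ATP. *Entpd6*, for an enzyme of the Golgi that cleaves nucleoside diphosphates, had 14.96 and 5.44, a difference of -1.31. Of the 12 kept genes of purine synthesis from scratch, 9 were not 1.5-fold apart and 3 were called higher in Lgr6+ progenitors, where 28.5% of all kept genes were. *Prps1*, for the enzyme that makes the ribose donor of the purine ring and whose human gene is altered in an inherited hearing loss, had 0.992 and 11.1, a difference of 2.60. *Adss*, for the first step from IMP to AMP, had 19.9 and 41.1, a difference of 1.01.

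**Figure D4:**
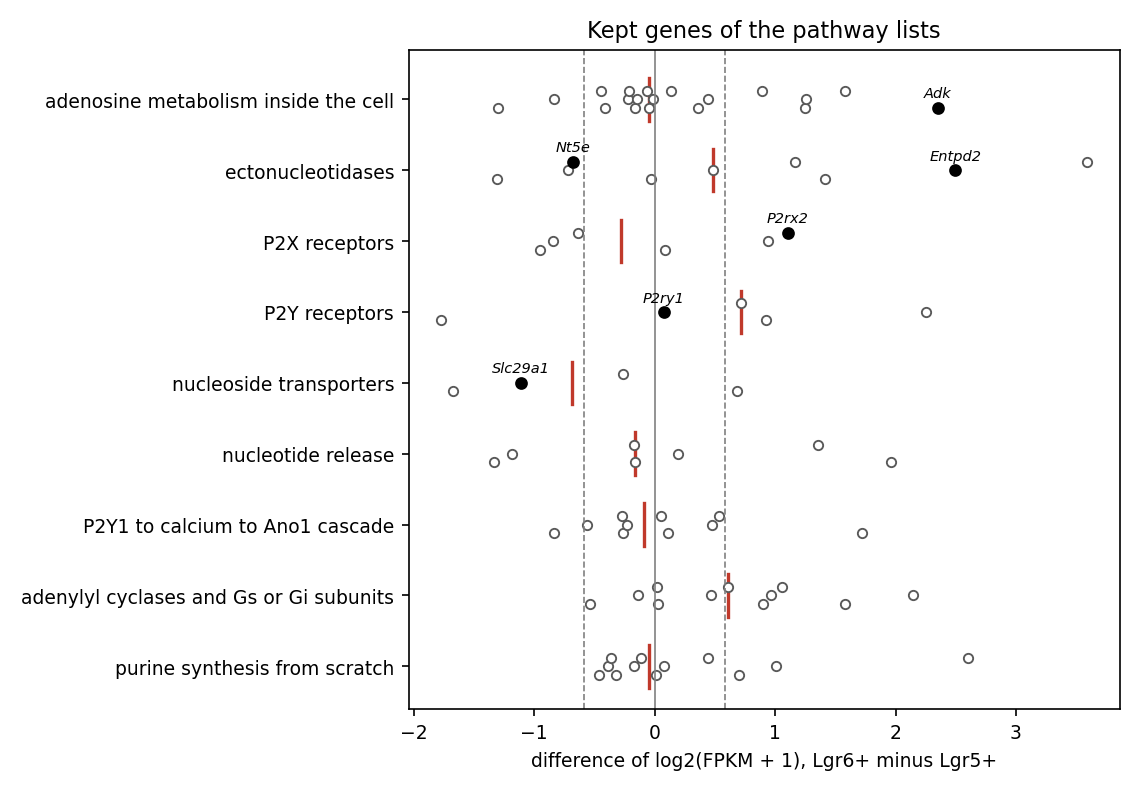
Difference of log2(FPKM + 1), Lgr6+ minus Lgr5+ progenitors (horizontal axis), of the kept genes of 9 pathway lists (rows), with members in black, other genes as open circles, the median of each list as a red bar, and dashed lines at 1.5-fold. The adenosine receptor list has no kept gene and is not drawn, and *Adk* and *Entpd2* lie near the right end of their rows.

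The table gives 1 value per gene and none per transcript, so it does not say which start of a gene was used. RefSeq lists promoter windows for 8 of the 10 genes (GRCm38.p6), and not for *Adora2a* and *P2rx2*. The 250 bases before the start are shown for the members with a window that were at least 2-fold apart, as the regions before annotated starts of the genes that differed most. For *Adk* both RefSeq starts are shown, as the long and the short form of adenosine kinase begin at different first exons. *Slc29a1* has 8 starts, of which the one nearest to the end of the gene in the deposited table is shown. The windows are chr14:21052324-21052573 and chr14:21075902-21076151 on the plus strand for *Adk*, chr2:25395624-25395873 on the plus strand for *Entpd2* and chr17:45599619-45599868 on the minus strand for *Slc29a1*. All are written 5′ to 3′ and end at the base before the start, and capitals mark the GC box GGGCGG or its reverse complement CCGCCC, to which Sp factors are known to bind.
Adk, first start: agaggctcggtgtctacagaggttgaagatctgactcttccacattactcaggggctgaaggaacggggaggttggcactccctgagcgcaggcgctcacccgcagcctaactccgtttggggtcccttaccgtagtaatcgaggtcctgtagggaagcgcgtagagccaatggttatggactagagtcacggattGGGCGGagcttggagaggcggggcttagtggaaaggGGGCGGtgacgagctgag
Adk, second start: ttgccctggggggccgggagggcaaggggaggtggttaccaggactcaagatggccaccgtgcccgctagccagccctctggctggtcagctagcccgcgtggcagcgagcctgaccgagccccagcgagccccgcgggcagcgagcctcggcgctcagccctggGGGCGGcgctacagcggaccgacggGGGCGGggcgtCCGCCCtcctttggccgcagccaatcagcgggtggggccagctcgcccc
Entpd2: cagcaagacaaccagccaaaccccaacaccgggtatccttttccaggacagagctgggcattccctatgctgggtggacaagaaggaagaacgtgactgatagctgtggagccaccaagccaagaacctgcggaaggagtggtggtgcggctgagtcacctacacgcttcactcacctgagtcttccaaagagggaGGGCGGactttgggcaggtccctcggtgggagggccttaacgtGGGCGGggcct
Slc29a1: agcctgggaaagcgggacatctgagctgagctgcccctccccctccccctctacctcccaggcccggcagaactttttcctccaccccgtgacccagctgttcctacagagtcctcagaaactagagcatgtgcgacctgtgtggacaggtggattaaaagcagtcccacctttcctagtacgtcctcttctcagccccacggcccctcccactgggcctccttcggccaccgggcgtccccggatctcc

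The window of *Adk* held 2 GC boxes at its first start and 3 at its second, that of *Entpd2* held 2, and the shown window of *Slc29a1* held 0. Of its other starts, the fourth, the sixth and the seventh counted from that end held 1 each and the fifth held 5, and the sixth also held an E-box. Over the nearest start of each of the 8 genes, 7 windows held at least 1 GC box, against 32.7% of all 32851 windows of the table. These shares are not matched, as all windows include every listed start of a gene. The 8 windows were also richer in GC than all windows, so the count is no result about the members. The E-box CACGTG, the TATA box TATAAA, the RBPJ motif GTGGGAA and the cAMP response element TGACGTCA, searched on both strands, were in none of the 8 windows, and in 6.02%, 12.4%, 5.42% and 1.55% of all windows. The GC content ran from 58.8% to 72.0%, with a median of 65.8% over the 8 windows and of 52.4% over all windows. The window at the first start of *Adk* had the lowest GC content of the 8. No match says only that these letters are not in the window.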

How the data were processed

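RNA-Seq values of Lgr5+ and Lgr6+ progenitors were taken from the table that the authors deposited, which holds FPKM values, 1 per gene and population. Trimmomatic served the authors for trimming, TopHat for mapping, RefGene for annotation and Cufflinks for FPKM, with no versions given in the sources used here. The methods name mm9 and the submitters' processing notes name mm10. The intervals of the deposited table overlapped the RefSeq gene of GRCm38.p6 for 98.8% of 22497 shared symbols, and for all 10 members, so positions are read as GRCm38 and printed with the start counted from 1. The columns of the authors' own fold changes, *p*-values and *q*-values were not used.

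A limma fit had been planned should the table hold a value per sample, which it does not, so no test was made. Differences are in log2(FPKM + 1), Lgr6+ minus Lgr5+, where the added 1 understates the difference of low genes. Genes were kept where either population reached an FPKM of 1, and a kept gene was called when at least 1.5-fold apart. The members and lists were chosen with earlier results of these data known. Genes named from the lists reached an FPKM of 5 in either population and were at least 2-fold apart, together with all P1 and P2 receptor genes, the 5 genes nearest to *Adk* and marker genes. *Gjb2*, *Gjb6*, *Slc17a9*, *Plcb3*, *Ano1*, *Gnas*, *Gnai2*, *Adcy6*, *Entpd1*, *Entpd8*, *Enpp1*, *Epcam* and the transporters beside *Slc29a1* were named after their values were seen. Transcript lengths for the steps came from GENCODE vM1 and promoter sequences from RefSeq. Values were recomputed with a pseudocount of 0.1, no filter, a minimum FPKM of 5, 3 scalings, a ratio without a pseudocount and a 2-fold threshold, and a filter that asked both populations for an FPKM of 1 was chosen after seeing the data. Python 3.11.15, numpy 2.4.6, pandas 2.3.3 and matplotlib 3.10.9 were used, and the calculations were tested on simulated data. Some genes that the rule names are not reported here. The deposited table gives no depth per library.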

Additional observations from a re-analysis of the deposited data

How the results depend on the processing

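No paired analysis was possible because the deposited table holds 1 combined value per population and no value per replicate, and for the same reason no replicate could be left out. *Adk*, *Entpd2*, *P2rx2* and *Slc29a1* kept their direction and stayed past the threshold under all 9 alternatives. *Nt5e* did not pass 2-fold and fell below the filters that asked for an FPKM of 5 or for an FPKM of 1 in both populations, so the number of members called toward Lgr5+ progenitors was 1 in place of 2 under these 3 settings. It was 3 without a filter, with each population scaled to the same sum and after quantile normalization. Its difference was -1.40 with a pseudocount of 0.1, -1.03 after quantile normalization and -1.61 as a log2 ratio without a pseudocount. Of 51 values of single members under the alternatives, 45 kept their call and stayed within 1.5 times, 6 did not, and 0 called values changed sign. For the pathway lists, the genes called toward Lgr6+ progenitors numbered 14 at a minimum FPKM of 5 and 17 with an FPKM of 1 in both populations against 27, and those called toward Lgr5+ progenitors numbered 7 at 2-fold against 14. The median difference of the pathway genes was -0.11 at a minimum FPKM of 5 and 0.29 with each population scaled to the same sum, where the median of all genes was 0.30. Of all genes 30.9% were called without a filter and 29.9% at 2-fold. With no counts and no replicates, the precision of each FPKM is unknown, and *Ada*, *Adora2b* and the Lgr6+ value of *Adora2a* rest on 1 or 2 steps.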
